A study of Mus musculus with 3 samples.

Results

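The Irf8-positive Clec12a-positive cells were mouse bone marrow cells with at least 1 UMI of each of Irf8 and Clec12a and with few transcripts of neutrophil granule and early B cell genes. In numbers, Elane, Ctsg and Ms4a3 together made up less than 20, and Cd79a, Vpreb3, Ebf1, Igll1 and Vpreb1 together less than 10, of every 10000 UMIs of the cell. There were 2348 such cells among 21251. All cells were LSK cells, which lack the surface markers of mature lineages and carry Sca-1 and Kit. Each of 3 genotypes gave 1 library: WT is Spop(+/+) Myd88 (+/+), KO is Spop(D/D) Myd88(+/+), and DKO is Spop(D/D) Myd88(-/-). Spop deletion is thus shared by KO and DKO. The sex, age, number of animals and the driver of the deletion are not given in the sources used here. With 1 library for each genotype there is no replicate, so a difference between genotypes is a difference between 3 libraries. Every interval below is a 95% interval that covers counting error only.

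IRF8 is a transcription factor that directs progenitors towards monocytes and dendritic cells and away from neutrophils, and it also acts in B cells and plasmacytoid dendritic cells. CLEC12A is an inhibitory C-type lectin receptor of myeloid cells. SPOP picks the proteins that a CUL3 ubiquitin ligase marks for breakdown, and MYD88 is the adaptor through which Toll-like and interleukin-1 receptors signal. DNTT, the enzyme that adds untemplated nucleotides at antigen receptor gene joins, and FLT3, the receptor of the FLT3 ligand, mark the early progenitors from which lymphoid and dendritic cells arise.

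The promoters of Irf8 and Clec12a are shown because these genes choose the cells, and that of Dntt because no other of the 17 genes described below as higher in every library had a ratio as large in any of them. Each is 300 bases of the plus strand, 250 before to 50 after a transcription start, from RefSeq on GRCm38.p6. The Irf8 window is chr8:120736108-120736407, that of Clec12a is chr6:129349994-129350293 and that of Dntt is chr19:41029025-41029324. The genes themselves span chr8:120736358-120756694 (Irf8), chr6:129342691-129365303 (Clec12a) and chr19:41029275-41059525 (Dntt) in the GENCODE annotation of the same assembly, so the Clec12a window lies inside the annotated gene. Capitals mark matches on either strand to GAGGAA (an ETS family core such as PU.1 binds) or TGTGGT (a RUNX core).
Irf8: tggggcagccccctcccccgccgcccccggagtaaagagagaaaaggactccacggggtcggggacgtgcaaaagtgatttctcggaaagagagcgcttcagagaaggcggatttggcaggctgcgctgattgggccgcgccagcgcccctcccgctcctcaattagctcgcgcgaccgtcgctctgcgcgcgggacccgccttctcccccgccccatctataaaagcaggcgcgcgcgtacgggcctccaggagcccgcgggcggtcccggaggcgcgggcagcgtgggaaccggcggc
Clec12a: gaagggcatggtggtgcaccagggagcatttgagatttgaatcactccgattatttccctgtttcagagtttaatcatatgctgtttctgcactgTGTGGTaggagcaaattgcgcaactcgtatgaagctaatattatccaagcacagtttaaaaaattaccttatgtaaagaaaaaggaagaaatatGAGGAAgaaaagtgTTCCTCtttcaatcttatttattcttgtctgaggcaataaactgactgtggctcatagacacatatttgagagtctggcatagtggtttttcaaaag
Dntt: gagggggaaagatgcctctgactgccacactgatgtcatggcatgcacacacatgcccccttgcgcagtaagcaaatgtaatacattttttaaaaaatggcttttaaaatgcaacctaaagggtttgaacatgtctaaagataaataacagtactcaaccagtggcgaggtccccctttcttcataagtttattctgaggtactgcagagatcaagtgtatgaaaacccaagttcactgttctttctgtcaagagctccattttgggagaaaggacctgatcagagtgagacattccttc
The Clec12a window held 2 matches to GAGGAA, 1 on each strand, and 1 match to TGTGGT. The Irf8 and Dntt windows held no match to these letters, nor to GAAA, any 2 bases and GAAA again (an IRF tandem motif), CAGCTG or CACCTG (E-boxes). These letters have no overlap with one another in the windows shown. Of 32851 promoter windows of this length, 28.3% held GAGGAA, 16.8% TGTGGT, 3.44% the IRF tandem motif, 16.3% CAGCTG and 20.2% CACCTG. Of those 17 genes, 11 had a window, and of their 20 windows 40% held GAGGAA, 10% TGTGGT, 5% the IRF tandem motif, 20% CAGCTG and 30% CACCTG. Of the 12 windows of 10 genes lower in every library, 33.3% held GAGGAA.

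The libraries held 8147 (WT), 4920 (KO) and 8184 (DKO) cells, with median depths of 9245, 17319 and 12404.5 UMIs. The Irf8-positive Clec12a-positive cells were deeper than the rest, with medians of 12062, 21728 and 15766.5 UMIs against 8910, 17051 and 11975.5. Pairs of libraries shared 46 to 83 cell barcodes, and 1 barcode belonged to such a cell in both DKO and WT. Xist, the X-inactivation transcript, stood at 1524 UMIs per 1000000 (CPM) in the DKO cells, 0.327 in WT and 0 in KO. The Y-linked Ddx3y stood at 0 CPM in DKO, 41.2 in WT and 32.3 in KO, so sex and genotype cannot be told apart in the DKO comparisons. Both genes were left out of the counts below.

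Under the full rule the cells were commonest in WT and rarest in KO. They made up 14.7% of WT (1197 cells, 13.9% to 15.5%), 5.96% of KO (293 cells, 5.31% to 6.65%) and 10.5% of DKO (858 cells, 9.83% to 11.2%). The rule asks for single UMIs, so the share moves with depth. When every cell was thinned to 5500 UMIs, the shares were 8.48% (7.86% to 9.14%), 2.03% (1.66% to 2.47%) and 4.8% (4.34% to 5.29%), in the same order. From all UMIs, the order of the libraries turned on the granule threshold. Values listed together below are given for WT, KO and DKO in turn. Cells with both genes and few B cell transcripts but with 20 or more granule UMIs per 10000 numbered 57 in WT, 850 in KO and 231 in DKO, and without that threshold KO had the highest share, at 23.2% (22.1% to 24.4%), against 15.4% (14.6% to 16.2%) in WT and 13.3% (12.6% to 14.1%) in DKO. Thinned cells with both genes, before either threshold, were 10.1%, 7.64% and 5.93%, so at equal depth KO was not highest. The highest granule values inside were 19.92, 19.98 and 19.97 in WT, KO and DKO, and the lowest outside 20.16, 20.31 and 20.01. The median inside was 0.632, 7.07 and 4.26, so KO cells lay nearest to the threshold. A single UMI of each gene admitted 206 WT, 47 KO and 155 DKO cells.

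**Figure D1:**
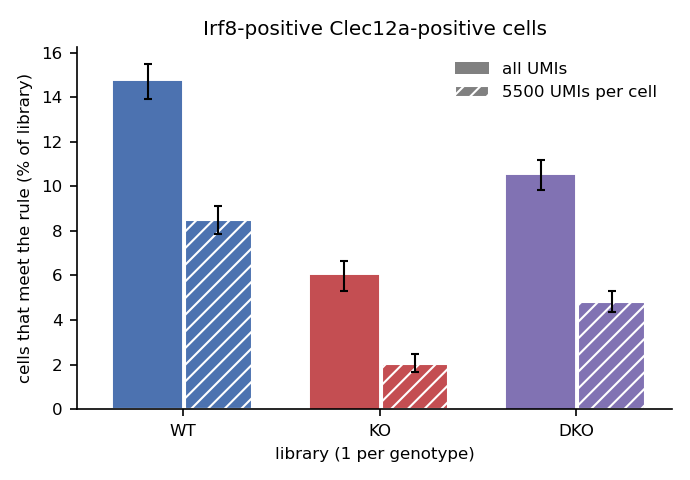
Share of cells that met the rule in each library (vertical axis, % of the library), from all UMIs (plain bars) and after thinning to 5500 UMIs per cell (hatched bars), with exact binomial 95% intervals. WT is highest and KO lowest either way, at 8.48% and 2.03% after thinning.

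The working name of these cells, monocyte-dendritic-primed, was checked against 16 monocyte and dendritic genes outside the rule, and the data bore out only a part of it. Tyrobp, Ly86 and Mpeg1, all among the 16, were higher in these cells than in the other cells of the same library. They are examples, and not every gene of the 16 is compared with other cells here. How many of the 16 were higher is therefore not given. Ly6c2, another of the 16, was among the 10 lowest ratios in KO, but at 3.23 times against only those other KO cells under both thresholds. Tyrobp, the DAP12 signalling adaptor, stood at 224, 218 and 193 CPM, against 113, 132 and 104 in the rest. Ly86, the MD-1 protein that pairs with RP105, stood at 54.4, 71.7 and 35.8 CPM against 9.83, 18.9 and 3.51. Mpeg1, a pore-forming protein of phagocytes, stood at 45.7, 32.3 and 18.7 against 6.35, 5.69 and 1.75. After thinning, Ly86 was found in 21.2%, 22.9% and 12.5% of the cells. It was found in 0.893%, 0.298% and 0.114% of megakaryocyte-erythroid comparison cells, chosen by Gata1, Klf1, Itga2b, Pf4 and Car1, which should lack it.

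Several genes that define monocytes and dendritic cells, named below, were low in level, though the summed lists were above other cells. Summed monocyte genes were 780, 1142 and 869 CPM against 523, 862 and 632. Plasmacytoid dendritic genes were 1012, 657 and 595 CPM against 675, 417 and 485. Conventional dendritic genes were 865, 855 and 902 CPM against 798, 767 and 792. Such sums can rest on few genes. Csf1r, the receptor of macrophage colony-stimulating factor, stood at 12, 25 and 9.88 CPM and was found in 5.98%, 11.3% and 5.48% of thinned cells. Siglech, which marks plasmacytoid dendritic cells, stood at 7.32, 0 and 0.649 CPM. No UMI of it was found in 293 KO cells, where a count of 0 allows a share of cells with a UMI of up to 1.02%, and it was at 0 in the other KO cells as well. Clec9a and Xcr1, of cross-presenting dendritic cells, and the dendritic factors Zbtb46 and Batf3 reached at most 0.865 CPM in any library. Cst3, often used as a dendritic marker, differed little, at 534, 557 and 562 CPM against 432, 443 and 487 in other cells. The median thinned cell held 3 of the 16 genes in WT, 4 in KO and 3 in DKO, against 2 in other cells and 1 in the comparison cells of each library. Cells with both genes but granule transcripts above the threshold held more, with medians of 4, 5 and 4, and 6 or more of the 16 in 33.3%, 40.9% and 20.8% of them against 9.02%, 20.5% and 6.88% under the threshold. Summed macrophage genes were 32.8, 7.51 and 26.3 CPM and mature neutrophil genes 83.9, 30.5 and 103. Since the lymphoid-primed Dntt and Flt3 were also among the genes furthest above other cells, the cells are called here by the 2 genes that choose them.

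**Figure D2:**
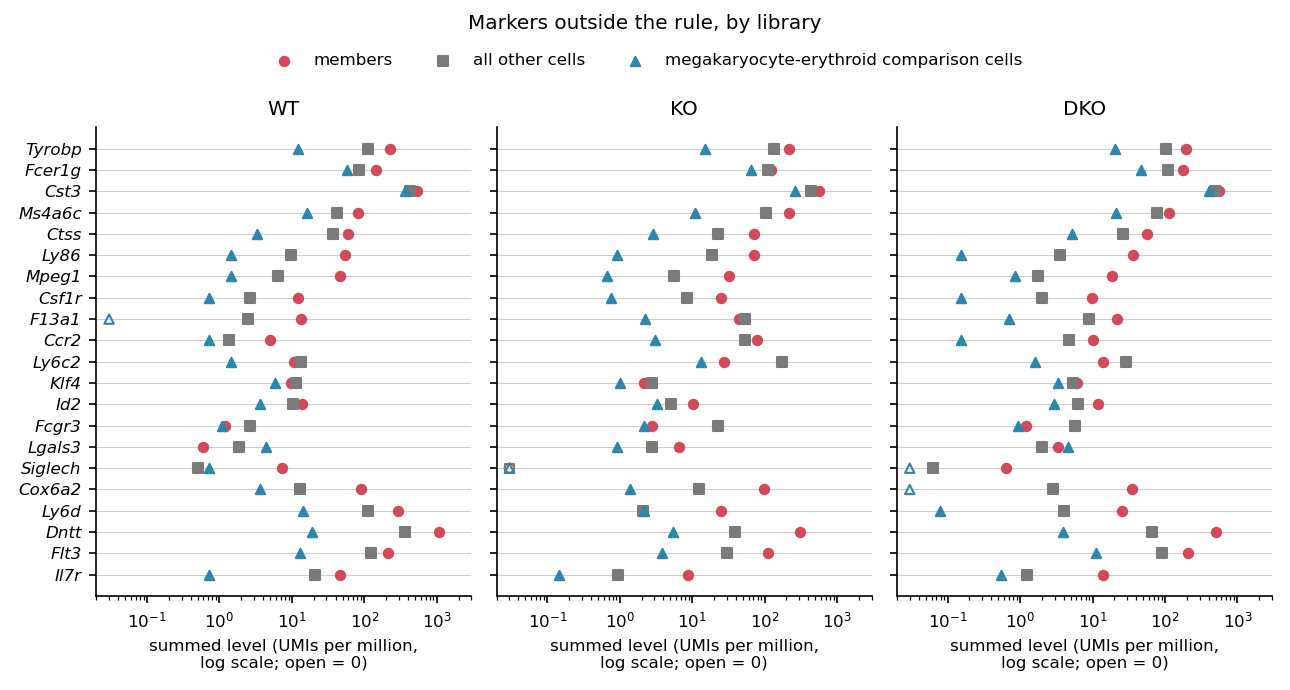
Summed level (UMIs per 1000000, log scale, open symbols mark 0) of genes outside the rule in the Irf8-positive Clec12a-positive cells (members, circles), all other cells (squares) and megakaryocyte-erythroid comparison cells (triangles) of each library. Ly86, Mpeg1, Cox6a2, Dntt and Flt3 are higher in members in every library, while Siglech, Fcgr3 and Lgals3 lie under 10 CPM in members.

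Against all other cells of the same library, the genes above included lymphoid-primed genes, and those below included genes that belong to stem cells and the erythroid and megakaryocyte lineages. The rule used this contrast, so the values are a description. Among genes with a mean of at least 50 CPM, 47 of 2500 were at least 1.5-fold higher in WT (1.88%), 45 of 2482 in KO (1.81%) and 39 of 2640 in DKO (1.48%). The numbers lower were 55 (2.2%), 69 (2.78%) and 70 (2.65%). In all 3 libraries 17 of 2185 genes were higher and 14 lower, a set formed after the values were seen.

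The 17 began with the lymphoid-primed genes. Dntt stood at 1063, 303 and 505 CPM, against 365, 38.6 and 67.1 in other cells, ratios of 2.92, 7.84 and 7.53. It was highest in WT in both kinds of cell. Flt3 stood at 214, 113 and 208 CPM, 1.76, 3.70 and 2.27 times the other cells. Satb1, a chromatin organiser of lymphoid progenitors, was 1.95, 3.65 and 2.53 times as high, and Bcl2, the survival protein, 2.24, 2.33 and 1.73 times. The endosomal Toll-like receptor chaperone Unc93b1 was 1.82, 1.96 and 2.0 times as high. The NADPH oxidase subunit Ncf1 was 2.22, 1.67 and 2.73 times as high, and Tyrobp 1.99, 1.65 and 1.86 times. Also among the 17 were Bex6, Emb, BC035044, Pou2f2, H2afy, Hes6, Smim14, Cd93 and Lgals1 (galectin-1), with ratios from 1.52 to 2.36.

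Of the 14 lower genes, Car2, the erythroid carbonic anhydrase, was at 0.327, 0.168 and 0.325 times the level of the other cells, and the tetraspanin Cd63 at 0.305, 0.250 and 0.293 times. Others were Nfe2, Anxa1, Ctla2a, Gclm, Tspan32, Rab38, Nt5c3, Serpina3g, Vamp5, Gstm1 and Hbb-bt. Of the stem cell genes tested, 6 of 7 were lower in WT and 6 of 8 in DKO, Hlf and Meis1 among them, with list medians of -0.90 and -0.96 (log2). In KO only 2 of the 20 listed genes were high enough to be tested, of which Ly6a was higher and none lower. The summed level of the 20 in KO was 2391 CPM against 2048 in other cells. Few genes can carry such a sum, and the part of each gene in it was not tested. The sum therefore does not show that the stem cell genes were higher as a set in KO. Of the lymphoid-primed genes, 6 of 11 were higher in WT, 6 of 8 in KO and 5 of 8 in DKO.

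Cox6a2 and Ly6d, which plasmacytoid dendritic cells and their lymphoid-primed precursors express, had large ratios that differed by library. Cox6a2, a muscle-type subunit of cytochrome c oxidase, stood at 89.3, 97.4 and 35.5 CPM, against 13.1, 12.3 and 2.87 in other cells. Ly6d, a surface protein of B cell-biased lymphoid progenitors, stood at 289 CPM in WT but 25.3 in KO and 25.8 in DKO, against 113, 2.08 and 3.99 in other cells. Set against only those other cells that were under both thresholds, the ratio of Ly6d in WT was 11.1 and that of Dntt in KO 4.15. The summed level of 19 neutrophil progenitor genes in KO was 3022 CPM against 6292 in other cells, a gap that follows in part from the rule, which leaves out granule-high cells.

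The nearest cells by Dntt were those that held Dntt but missed the rule: 2317 in WT, 653 in KO and 1260 in DKO. All of these held Dntt by choice, while 19.6%, 41.0% and 30.8% of the Irf8-positive Clec12a-positive cells did not. Flt3 separated these populations by little, with ratios of 1.02 (0.976 to 1.07), 0.987 (0.899 to 1.08) and 1.02 (0.969 to 1.07). Satb1 differed little as well, at 1.12, 1.09 and 1.13. Mpo, the granule enzyme myeloperoxidase, stood at 249, 354 and 312 CPM, against 109, 138 and 138, ratios of 2.30 (2.18 to 2.42), 2.57 (2.40 to 2.75) and 2.25 (2.14 to 2.37). Ms4a6c, a membrane protein of monocytes, was 2.32, 2.67 and 1.83 times as high, Fcer1g (the common Fc receptor gamma chain) 1.63, 1.98 and 1.70 times, and Plac8 1.77, 1.80 and 1.68 times. Irf8-positive Clec12a-positive cells without Dntt had 3.59, 3.39 and 2.45 times the Mpo of those with it, and 2.72, 1.73 and 1.68 times the Ms4a6c. How much of the Mpo and Ms4a6c ratios comes from those cells was not tested. The stem cell factor Hlf was at 0.343, 0.243 and 0.399 times, and 7 of 7 stem cell genes were lower in WT and 4 of 7 in DKO. The share of tested genes past 1.5-fold upwards was 1.36%, 2.39% and 0.421%, and downwards 1.88%, 2.72% and 1.26%.

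Cells that passed both thresholds but held only 1 of the 2 genes were a further comparison. Cox6a2 was 3.41, 4.56 and 3.74 times as high in the Irf8-positive Clec12a-positive cells as in cells with Irf8 only, and 3.5, 3.90 and 4.50 times as in cells with Clec12a only. Dntt was 2.30, 2.02 and 2.74 times and 1.59, 1.81 and 2.42 times as high. Apoe, the apolipoprotein E gene, was lower against both, at 0.300, 0.0890 and 0.219 times and 0.284, 0.0606 and 0.264 times. The mitosis genes Ube2c, Ccnb2, Cenpf and Cdca3 were among the 10 highest ratios against cells with Irf8 only in WT and DKO, but not in KO. Against cells with Irf8 only, 1.41%, 1.23% and 0.803% of genes were past 1.5-fold upwards and 1.41%, 1.72% and 1.49% downwards. Against cells with Clec12a only, the shares were 0.72%, 2.87% and 0.533%, and 1.32%, 4.13% and 1.75%. Both kinds of cell were shallower in every library, with medians of 9611, 16410 and 12561 UMIs and of 9212, 16600 and 13623 UMIs.

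Cells with both genes but granule transcripts above the threshold were the other neighbours. Dntt was nearly missing from them, at 27.3, 3.60 and 23.3 CPM. The monocyte surface gene Ly6c2 ran the other way, at 272, 396 and 253 CPM there against 10.6, 27.4 and 14.0 in the cells under the threshold. F13a1, the clotting factor XIII A chain of monocytes, was at 86.8, 140 and 114 against 13.4, 43.8 and 22.1. Irf8 itself differed less, at 255, 168 and 205 CPM there against 343, 225 and 228. Ly6c2 and F13a1 were thus higher on the far side of a threshold drawn on 3 neutrophil granule genes. Mpeg1 was not: it was 4.68, 2.54 and 1.81 times as high under the threshold. Of all genes, 6.73%, 3.58% and 2.68% were higher under the threshold and 5.63%, 5.89% and 2.37% lower.

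Among the Irf8-positive Clec12a-positive cells, those with more Irf8 also had more of Tyrobp, Fcer1g, Ctss and Unc93b1. Each library was split into tertiles by the Irf8 share of UMIs, 399 cells each in WT, 97 or 98 in KO and 286 in DKO. This split and those that follow were chosen after values were seen and are descriptions. Between the highest and lowest tertile, 18 of 2156 genes (0.835%) were at least 1.5-fold apart in the same direction in all 3 libraries. Ly86 was too low for that count but had the largest ratio of the 9 genes plotted, from 22.1 to 34.7 to 109.6 CPM in WT, 15.0 to 50.1 to 154 in KO and 8.0 to 11.8 to 88.8 in DKO. Tyrobp went from 155 to 325 CPM in WT, 151 to 328 in KO and 145 to 264 in DKO. Fcer1g was 2.13, 2.16 and 1.78 times as high in the highest tertile, the protease Ctss (cathepsin S) 1.97, 2.20 and 1.78 times, and Unc93b1 2.02, 1.91 and 2.14 times. Lgals1, Ms4a6c, Plac8 and Tpm4 were the other 4 higher genes.

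Lower in the highest Irf8 tertile were Car2, at 0.318, 0.274 and 0.437 times, Vamp5, at 0.450, 0.341 and 0.415 times, and Adgrg1, Adgrl4, Ctla2a, Dapp1, Nedd4, Nkg7, Rab38 and Slco3a1. Dntt did not run against Irf8: it went from 913 to 1191 CPM in WT, 213 to 352 in KO and 376 to 673 in DKO. Flt3 differed less, from 207 to 215, 98.4 to 127 and 183 to 224 CPM. Median UMIs were 13325 and 11441 in the lowest and highest tertile of WT, 21110.5 and 21745.5 in KO, and 16462 and 15612 in DKO.

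**Figure D3:**
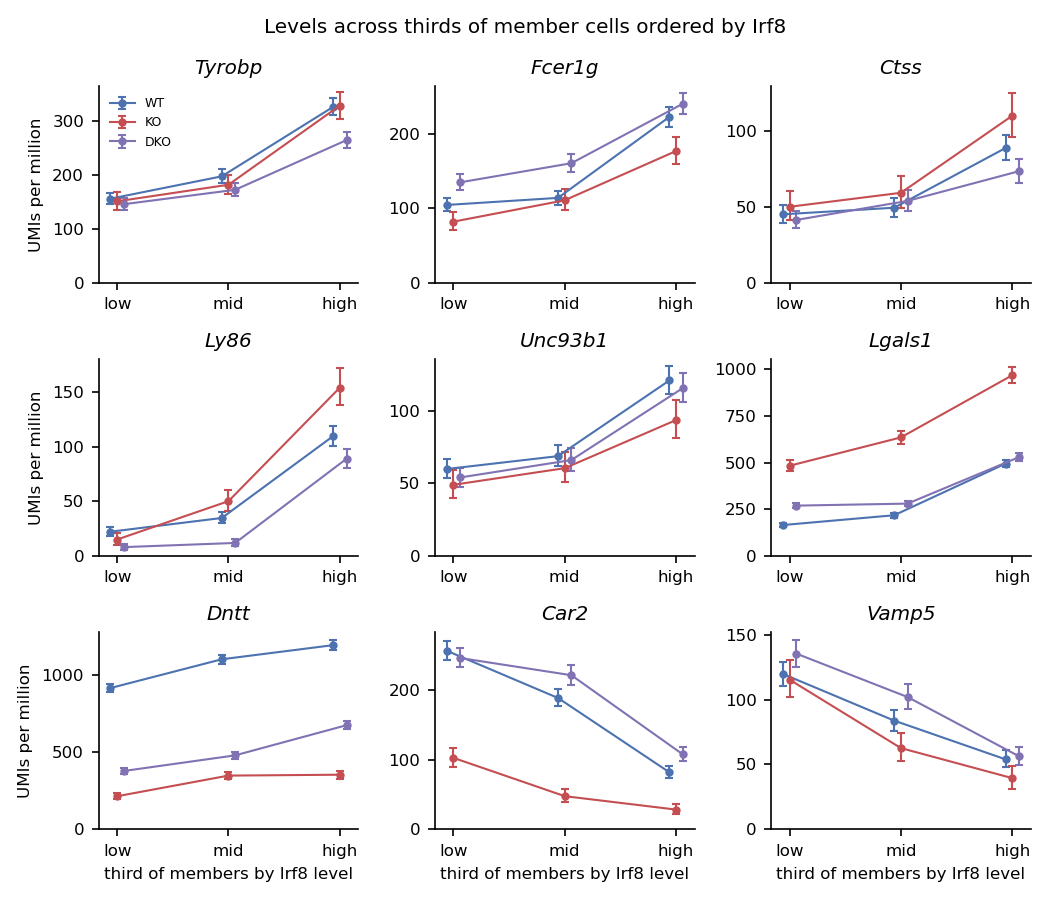
Summed level (UMIs per 1000000, each axis from 0) of 9 genes in the lowest, middle and highest tertiles of the Irf8-positive Clec12a-positive cells by Irf8 share, for each library, with exact Poisson 95% intervals. Tyrobp, Ly86 and Unc93b1 are highest, and Car2 and Vamp5 lowest, in the highest tertile of all 3 libraries.

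Lymphoid and granule transcripts were unevenly shared among the cells. Cells without Dntt had 3.59, 3.39 and 2.45 times as much Mpo and 0.571, 0.461 and 0.630 times as much Satb1 as those with it, and 13 of 2174 genes (0.598%) were 1.5-fold apart one way in all 3 libraries. The cells were also split on detection of 1 gene after thinning. Ly6d was found in 19.4%, 4.44% and 4.43% of them (224, 13 and 38 cells). Cells with Ly6d had more Il7r, the interleukin-7 receptor, at 141, 55.8 and 97.5 CPM against 22.4, 7.13 and 9.75. They had 2.75, 4.58 and 3.36 times as much Dntt and 5.89, 2.07 and 6.55 times as much Cox6a2. In WT, 28.8 against 2.05 CPM of Siglech was counted in them, a ratio of 14.0 (8.89 to 22.9). They had less Mpo, at 0.207, 0.205 and 0.185 times, and less Prtn3 (proteinase 3), at 0.133, 0.364 and 0.226 times.

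Mpo was found in 45.8%, 60.4% and 57.8% of the thinned cells. Cells with Mpo had 0.465, 0.354 and 0.351 times as much Dntt and 0.254, 0.184 and 0.0993 times as much Ly6d as those without. Irf8 differed less, at 0.677, 0.721 and 0.785 times. Cells with Ly86 (245, 67 and 107) had more of a lymphoid and of a monocyte gene by summed level: Dntt at 1.66, 1.46 and 1.69 times and Ly6c2 at 7.73, 2.95 and 16.4 times. By share of thinned cells, Dntt was found in 82.4% with Ly86 against 68.9% without in WT, but in 44.8% against 46.9% in KO. Ly6c2 was found in only 7.76% of WT cells with Ly86, against 1.65% without. The invariant chain Cd74 was higher in cells with Ly86 in every library, at 1.49, 14.7 and 4.67 times by summed level. The share of thinned cells with a UMI of Cd74 differed less, at 21.6%, 10.4% and 14.0% against 16.7%, 8.41% and 13.6%. Csf1r was 2.05, 1.88 and 3.72 times as high in cells with Ly86 and F13a1 3.13, 3.18 and 6.83 times.

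**Figure D4:**
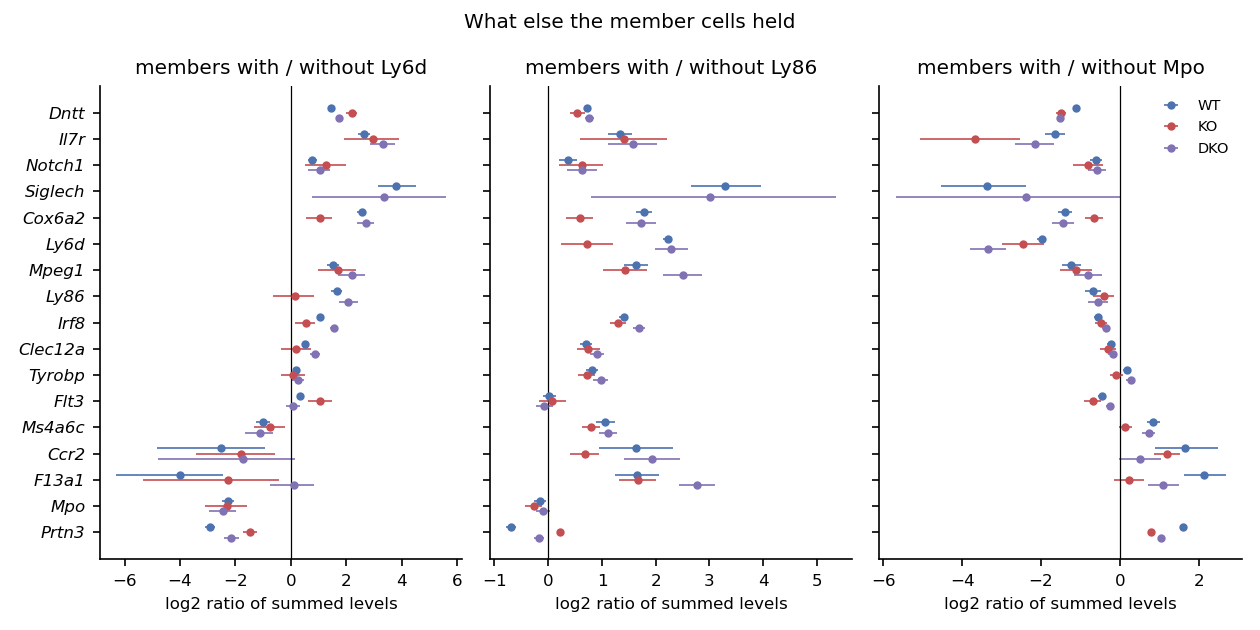
Log2 ratio of the summed level of each gene between Irf8-positive Clec12a-positive cells with and without a UMI of Ly6d (left), Ly86 (middle) or Mpo (right) after thinning, for each library, with counting 95% intervals. Dntt, Il7r and Cox6a2 lie to the right of 0 for Ly6d and to the left for Mpo. Siglech is not drawn for KO, where it was listed at 0.

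The DKO and WT cells were compared across both deletions. Of the tested genes, 25 of 2537 (0.985%) were at least 1.5-fold higher in DKO and 33 (1.3%) lower. Among all other cells 64 of 2644 (2.42%) were higher and 45 (1.7%) lower. The lower genes were led by lymphoid and immediate early genes. Ly6d was at 25.8 against 289 CPM, 0.0894 times the WT level (0.0800 to 0.0996), and at 0.0353 times in other cells. The ratio of Ly6d was 0.134 with a granule threshold of 5 per 10000 and 0.164 with the rule applied after thinning. Dntt was at 505 against 1063 CPM, 0.475 times (0.462 to 0.489), against 0.184 times in other cells. At that granule threshold the Dntt ratio was 0.611, and with the rule applied after thinning 0.562. Notch1, the receptor that drives T cell fate, was at 47.4 against 96.0 CPM, and Cox6a2 at 35.5 against 89.3 CPM, 0.398 times (0.358 to 0.441). Among cells without a UMI of Dntt, the Cox6a2 ratio was 1.55 with an interval that spans 1 (0.869 to 2.87), and that of Ccl9, described below, was 1.51. Of the 10 tested lymphoid-primed genes 3 were lower and none higher.

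Immediate early genes, which follow a stimulus within minutes and can also respond to cell handling, were lower in DKO for 10 of 14, with a median of -0.77 (log2) against 0.08 over all genes. Fosb was at 31.7 against 99.9 CPM, Btg2 at 35.1 against 101, Klf2 at 52.3 against 120 and Fos at 252 against 424. In other cells these 4 genes were at 0.393, 0.406, 0.551 and 0.616 times. The part of cell handling was not tested.

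Higher in DKO were Serpina3g, a serine protease inhibitor of haematopoietic progenitors, at 105 against 42.3 CPM (2.49 times, 2.27 to 2.74), and the chemokine Ccl9, at 378 against 163 CPM (2.32 times, 2.21 to 2.43). The interferon-inducible GTPase Ifi47 was at 85.3 against 49.5 CPM and the class II chain H2-Aa at 68.4 against 37.5. Of 10 tested interferon-stimulated genes 2 were higher, Ifi47 and Tap1, and of 6 class II genes 1 was. Rab38, Glul, Ifi27, Acot1 and Anxa2 were also among the 10 highest ratios, from 1.69 to 1.96. Among cells without Dntt these genes were at 1.53, 1.73, 1.71, 1.41 and 1.49 times, and Serpina3g was at 1.83 times. Monocyte and dendritic transcription factors (5 tested), monocyte genes (3 tested), conventional dendritic genes (3 tested) and Toll-like receptor and MYD88 pathway genes (3 tested) held none at 1.5-fold.

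The KO and WT cells differed more. Of 2457 genes, 168 (6.84%) were at least 1.5-fold higher in KO and 160 (6.51%) lower, and among all other cells 304 of 2547 (11.9%) and 244 (9.58%). TMM scaling gave 333 higher and 106 lower, and moved the all-gene median from 0.09 to 0.19 (log2). Mt1, a metallothionein, stood at 223 against 12.9 CPM, 17.3 times (14.9 to 20.2). Ifitm1, an interferon-inducible membrane protein, stood at 2075 against 467 CPM, 4.44 times (4.31 to 4.57), compared with 1.88 times in other cells. Ly6a, which encodes Sca-1, stood at 128 against 53.5 CPM, 2.39 times (2.16 to 2.63), while in other cells it was at 0.835 times. With Ifitm3 and Ifi27l2a they made 4 of 10 interferon-stimulated genes that were higher, and none was lower.

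Myeloid and growth genes were also higher in KO. Prtn3 was at 1576 against 489 CPM, 3.22 times (3.13 to 3.32), Ms4a6c at 214 against 81.8 (2.61 times) and Lgals1 at 691 against 288.5 (2.40 times). Of 17 ribosome biogenesis genes 7 were higher, including the spermidine synthase Srm at 266 against 125 CPM and nucleolin, Ncl, at 1673 against 1006. Summed neutrophil progenitor transcripts (19 genes, none at 0) were 3022 CPM in KO, 2186 in DKO and 1649 in WT, and 1 of the 4 tested, Prtn3, was 1.5-fold higher. With the granule threshold at 5 per 10000, which left 114 KO and 993 WT cells, Prtn3 was at 2.59, Ms4a6c at 2.33, Ifitm1 at 3.77, Ly6a at 3.22 and Mt1 at 14.2 times the WT level, and the number of higher genes was 58 in place of 168. Among cells without Dntt, Mt1, Prtn3 and Ms4a6c were at 10.8, 2.06 and 1.67 times.

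Lower in KO were the lymphoid-primed genes, 8 of 10, with a median of -0.90 (log2) against 0.09 over all genes. Ly6d was at 25.3 against 289 CPM, 0.0875 times (0.0745 to 0.102), Dntt at 303 against 1063, 0.285 times (0.272 to 0.299), and Flt3 at 113 against 214, 0.526 times (0.485 to 0.570). Mef2c, Satb1, Lsp1, Notch1 and Ikzf1, factors and signalling genes of lymphoid progenitors, were at 0.529, 0.580, 0.545, 0.375 and 0.648 times. Immediate early genes were lower for 10 of 11, with a median of -1.91: Fos stood at 54.7 against 424 CPM, 0.129 times (0.116 to 0.144). Fos was at 0.0983 times in other cells. Among cells that held Dntt, the Fos ratio was 0.153 and that of Ly6d 0.126. With the granule threshold at 5 the ratio of Ly6d was 0.220, and with the rule applied after thinning 0.180. The GTPase genes Gimap6 and Gimap1 were at 0.161 and 0.256 times, Il12a at 0.247 and Myl10 at 0.144 times, and at that threshold Gimap6, Gimap1 and Myl10 were at 0.275, 0.469 and 0.257 times.

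**Figure D5:**
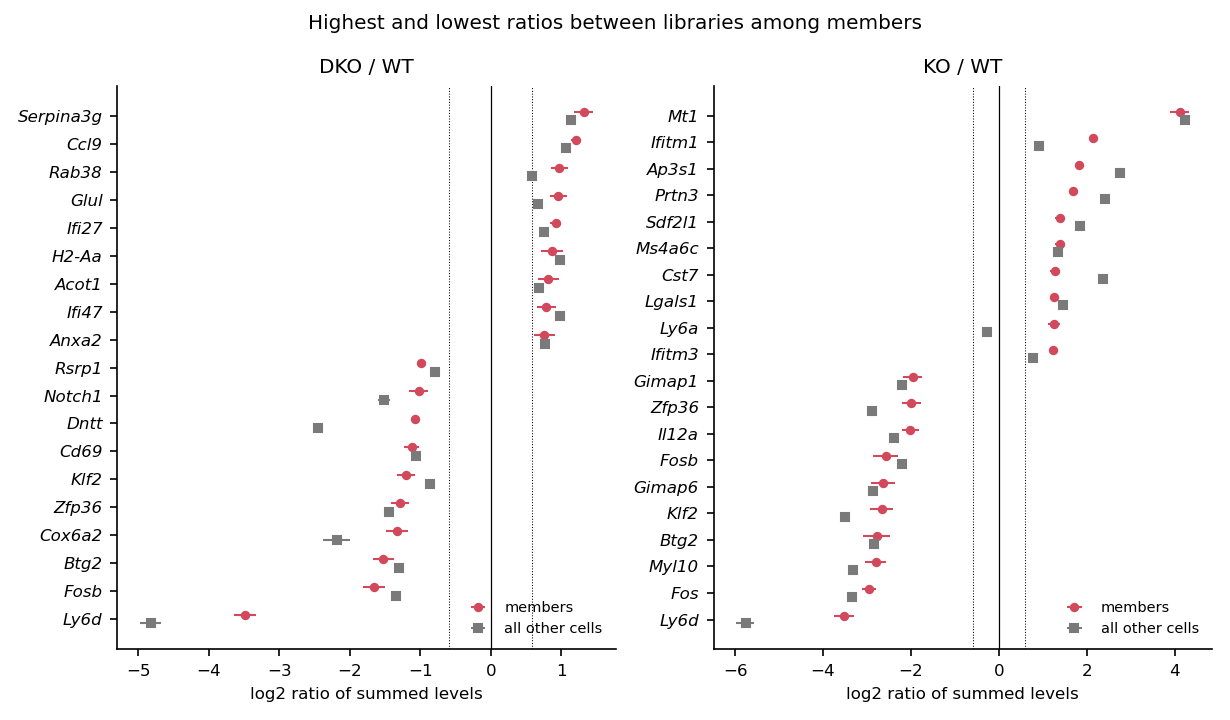
Log2 ratio of summed levels between libraries for genes among the 10 highest and 10 lowest in the Irf8-positive Clec12a-positive cells (members, circles), with the same ratio in all other cells (squares), for DKO over WT (left) and KO over WT (right). Bars are counting 95% intervals and dotted lines mark 1.5-fold. Most genes lie on the same side in both kinds of cell, and Ly6a in KO over WT does not (2.39 against 0.835 times).

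DKO and KO cells share Spop(D/D) and differ in Myd88. They also differ in Xist and Ddx3y, as given above, so sex and Myd88 genotype cannot be told apart here. Of 2513 genes, 175 (6.96%) were at least 1.5-fold higher in DKO and 112 (4.46%) lower, and with TMM scaling, which moved the all-gene median from -0.01 to -0.13 (log2), 111 and 225. In other cells 287 of 2616 (11%) were higher and 192 (7.34%) lower. The comparison shares its KO and DKO libraries with the 2 above, so it adds no separate evidence. Higher were Myl10, at 140 against 23.7 CPM (5.89 times), Fos, at 252 against 54.7 (4.61 times, 4.14 to 5.16), and Gimap6, at 82.9 against 18.7 (4.44 times). Of 6 tested immediate early genes 5 were higher, and of 8 lymphoid-primed genes 4 were, with Flt3 at 1.85 times and Dntt at 1.67 times. Lower were Mt1, at 24.4 against 223 CPM (0.110 times), Ifitm1, at 475 against 2075 (0.229 times), Hp, the haptoglobin gene, at 19.3 against 87.5 (0.221 times), and Ly6a, at 54.5 against 128 (0.427 times). With the granule threshold at 5 per 10000, Mt1 and Hp were at 0.167 and 0.358 times. Set beside WT, the DKO level of Ifitm1 was 475 against 467 CPM and that of Ly6a 54.5 against 53.5, while Ly6d stayed low, at 25.8 against 289.

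Spop and Myd88 were read as well. Spop stood at 73.4, 67.7 and 76.0 CPM, but the deleted part is not stated and a 3' tag may lie outside it, so this does not test the deletion. Myd88 stood at 13.6, 24.2 and 3.96 CPM. It was 1.78 times the WT level in KO (1.44 to 2.20) and 0.292 times in DKO (0.213 to 0.394).

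Cells with over 1% of thinned UMIs in a list of mitosis genes were 9.28% (7.67% to 11.1%), 2.73% (1.19% to 5.31%) and 10.3% (8.32% to 12.5%) of the WT, KO and DKO cells. The list of DNA replication genes passed 1% in none of them. In other cells the shares were 6.86%, 7.09% and 10.7%. The low KO share rests on 8 cells and was 1.71% with cells thinned to 4500 UMIs. At 0.5% of the mitosis list the shares were 27.6%, 29.0% and 29.4%, and at 0.5% of either list 36%, 36.5% and 44.1%, so the order depends on the threshold.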

How the data were processed

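Single-cell 3' RNA sequencing (Chromium 3' v2) was done on sorted mouse bone marrow LSK cells, 1 library for each of WT, KO and DKO. The authors deposited a table of UMI counts per gene and cell (14721 genes, 21251 cells), and cell names carry the library. Per the submitters' processing notes, bcl2fastq, Cell Ranger, Seurat and mm10 were used. Versions, cell filters and doublet removal are not given in the sources used here. The deposited normalized table was not used.

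Cells were chosen by the rule, and their counts were summed and scaled to 1000000. Ratios have exact conditional binomial, levels exact Poisson and shares exact Clopper-Pearson intervals at 95%. UMIs limit repeats from PCR, and the intervals cover counting error only. A gene counted as higher or lower at 1.5-fold with a mean of at least 50 CPM. No doublet caller was run, and an alternative dropped the cells above the 95th percentile of UMIs. Genes were named from the 10 highest and 10 lowest ratios of each comparison, without rule, predicted, ribosomal, mitochondrial, globin, Xist and Y-linked genes, and from up to 5 members of each of 29 gene lists. Other genes were added after their values were seen. The members and lists were chosen with earlier results of these data known. Thinning to 5500 UMIs left out 683 WT and 178 DKO cells and no KO cell. Promoter windows come from RefSeq and gene positions from GENCODE. Alternatives covered scaling (TMM in edgeR 4.0.16 under R 4.3.3, and median of ratios), level and fold thresholds, equal weight for each cell, depth and the rule's thresholds. Python 3.11.15 with numpy 2.4.6 and scipy 1.17.1 did the rest. A few genes that met these rules are not reported here.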

Additional observations from a re-analysis of the deposited data

Results flagged for a closer look

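Ly6a, which encodes Sca-1, stood out because its direction against other cells of the same library was not shared by the libraries. It was at 1.55 times the other cells in KO (128 against 82.2 CPM), and at 0.544 times in WT (53.5 against 98.4 CPM) and 0.576 times in DKO (54.5 against 94.6 CPM).

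Chchd10, a mitochondrial intermembrane space protein, stood out because its KO to WT ratio was in opposite directions in the 2 kinds of cell. It was at 1.61 times the WT level in the Irf8-positive Clec12a-positive cells (99.0 against 61.3 CPM) and at 0.530 times in all other cells (122 against 229 CPM). Neither difference was tested, since each genotype has 1 library. The makeup of the other cells differed between the libraries, and its part in these values was not tested.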

How the results depend on the processing

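Of 659 ratios under alternatives that can move a ratio, 3 were in the other direction. The genes were those with the highest and lowest ratios of each comparison. Cox6a2 in DKO over WT was at 1.55 without members that held Dntt, with an interval that spans 1 (0.869 to 2.87). Against other cells under both thresholds only, Bfsp2 in WT was at 2.21 and Ly6c2 in KO at 3.23, where the alternative drops B lineage or granule-high cells. Such extreme ratios are unlikely to change direction, so the tally does not show that their size held. At a granule threshold of 5, 18 of 20 ratios in KO over WT left the main interval and 2 did not. Without members that held Dntt, 17 of 20 left it in KO over WT and 13 of 19 in DKO over WT. With TMM, 6 of 20 left it in KO over WT and 0 of 20 in DKO over WT.

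Counts of genes higher and lower moved with the settings, in the order DKO over WT, KO over WT and DKO over KO. A minimum of 20 CPM gave 93 and 98, 289 and 467, and 482 and 202. A minimum of 100 CPM gave 5 and 15, 99 and 51, and 62 and 68. A minimum of 10 counts gave 905 and 1097, 900 and 2741, and 2580 and 832. A 2-fold threshold gave 3 and 10, 27 and 47, and 40 and 15. TMM gave 333 and 106 for KO over WT and 111 and 225 for DKO over KO, and median of ratios 373 and 95, and 111 and 223. Without members that held Dntt there were 41 higher in DKO over WT, 326 higher in KO over WT and 188 lower in DKO over KO. With those members only, an alternative chosen after seeing the data, there were 81 higher in KO over WT and 62 lower in DKO over KO. The rule after thinning gave 38 higher in DKO over WT. A granule threshold of 5 gave 58 higher in KO over WT and 55 lower in DKO over KO. Against other cells, a minimum of 20 CPM gave 104 and 152 in WT, 118 and 193 in KO and 85 and 180 in DKO, and other cells under both thresholds gave 109 and 149 in KO. The cause of these moves was not tested.

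Shares in WT, KO and DKO were 8.48%, 2.03% and 4.8% after thinning, 6.67%, 3.15% and 5.05% with 2 counts of each gene, and 12.2%, 2.32% and 5.73% at a granule threshold of 5. Without that threshold they were 15.4%, 23.2% and 13.3% from all UMIs, so that KO was highest, and without the deepest cells WT was at 13.9%. KO was not highest at equal depth: thinned cells with both genes, before either threshold, were 10.1%, 7.64% and 5.93%. Shares past the mitosis or the DNA replication list were 36%, 36.5% and 44.1% at 0.5%, and 0.0867%, 0% and 0.117% at 2%. No paired analysis was possible because each genotype has 1 library. Depth limits the rule, since 1 UMI decides membership for many cells, and absence of a UMI is not absence of the transcript.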

Other observations

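Genes of secreted factors gave values outside the comparisons above. Ccl5, a chemokine of activated lymphoid and myeloid cells, stood at 81.0 CPM in the DKO Irf8-positive Clec12a-positive cells against 31.0 in other DKO cells, and at 13.2 in WT and 3.83 in KO. Wfdc17, a secreted whey acidic protein-like gene of myeloid cells, stood at 211, 222 and 189.6 CPM in WT, KO and DKO, against 151, 75.4 and 61.6 in other cells. Il12a, the p35 chain of interleukin-12, stood at 147, 36.5 and 79.2 CPM, against 67.1, 12.9 and 31.9 in other cells.

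The interferon-inducible gene Ifitm1 was lower in cells with Ly6d than in those without in all 3 libraries, at 0.497, 0.504 and 0.635 times in WT, KO and DKO. Ly6a was higher in those cells in WT (2.47 times) and KO (2.86 times) and was at 0.860 times in DKO (0.576 to 1.24). These values describe single libraries and have no replicate check.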
